A study of Mus musculus with 27 samples.

Results

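Eef1a1, Actb and Gapdh are mRNAs that are often taken as constant references, and their levels were followed here in mouse embryonic stem cells with and without the transcription inhibitor triptolide. The 3 transcripts were picked by identifier, with no rule on their values, out of 137271 transcripts listed, though earlier results of these data were known. Each is given as the main mRNA of its gene. All 3 were far above the limit for comparison, a mean of 1 CPM (counts per 1000000 reads of the library), which 32199 transcripts passed.

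The KH2 cells used are embryonic stem cells of the mouse, built for doxycycline-inducible transgenes, with the genotype KH2:13 Flag-BAP-H3 tags in every library. All were kept with LIF, 1 µM of a MEK inhibitor and 3 µM of a GSK3 inhibitor, held by a double thymidine block at the start of S phase and released. Polyadenylated RNA was taken at 3 h and at 6 h of release, each time from cells without triptolide and from cells with 1 µM triptolide, which gives 4 conditions of 1 library each. When triptolide was added, and whether the cells of these 4 libraries received doxycycline, is not stated, and 23 chromatin libraries of the 27 samples are not analysed here. The series asks where nucleosomes of active and repressed domains go at replication, and no purpose of the RNA libraries is stated.

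Triptolide blocks initiation by RNA polymerase II through the XPB subunit of TFIIH. Once synthesis is blocked, mRNAs are lost at their own rates, and the share of a transcript in a sequenced library then depends on its own loss against that of all other RNA in the library. A housekeeping mRNA is a usable reference only where its own amount is steady. Eef1a1 encodes the translation elongation factor that brings aminoacyl-tRNA to the ribosome, Actb encodes cytoplasmic beta-actin of the cytoskeleton, and Gapdh encodes the glycolytic enzyme glyceraldehyde-3-phosphate dehydrogenase.

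The Eef1a1 transcript ENSMUST00000042235 is 1794 nt long, and RefSeq places its gene at chr9:78478453-78481724 in GRCm38. The Actb transcript ENSMUST00000100497 is 1920 nt long, from a gene at chr5:142903115-142907976. The Gapdh transcript ENSMUST00000117757 is 1273 nt long, from a gene at chr6:125161852-125166467. RefSeq names 2 pseudogenes after Eef1a1, 1 after Actb and 3 after Gapdh, and copies under other names were not counted. The quantifier may divide reads that fit a parent and a copy, or several mRNAs of a gene. The Gapdh estimates had fractions in all 4 libraries, as happens when reads are divided. The Actb estimate had one in the treated 6 h library, its only estimate under 100000 reads. Larger estimates, those of Eef1a1 included, are deposited to 6 digits and cannot show a fraction. How much of each value rests on divided reads was not tested.

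Library totals at 3 h were 27443889 reads without the drug and 27242760 with it, and at 6 h 24913767 and 19145129 reads. The members had 39214 to 275481 reads per library, so counting intervals are narrow, but they hold no variation between cultures or library preparations. Every difference is between single libraries, with no replicate check and no test. All values are shares of a bulk library, so fewer cells and less RNA per cell cannot be told apart, and neither would show if it were common to all transcripts. Stem cell markers were not checked, because the tables used here pair no transcript identifier with a gene.

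Eef1a1 held a larger share of the reads with triptolide at both times. Its log2 ratio was above 0 under every scaling tried, except at 6 h against Gapdh alone, where it was -0.00045. Eef1a1 stood at 8890 CPM untreated and 10112 CPM treated at 3 h, and at 8323 CPM untreated and 11349 CPM treated at 6 h. Both treated values lay above both untreated ones. The treated library was 1.14-fold higher at 3 h (log2 ratio 0.19, 95% counting interval 0.18 to 0.19) and 1.36-fold higher at 6 h (log2 ratio 0.45, interval 0.44 to 0.46). Per length, Eef1a1 was at 5658 TPM (reads divided by effective length and scaled to 1000000) untreated and 6050 TPM treated at 3 h. At 6 h it was at 5368 and 5973 TPM. The treated values lay above the untreated ones on that scale too, but the log2 ratios were smaller, 0.10 and 0.15. How many other transcripts or ratios separate treated from untreated libraries in this way, here or below, was not counted. Eef1a1 ranked 4th by reads in each of the 4 libraries.

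Actb stood apart from the other 2 in having no larger share of reads with the drug by library totals. It stood at 4382 CPM untreated and 3846 CPM treated at 3 h, and at 4520 CPM untreated and 4397 CPM treated at 6 h. The treated 3 h library was the lowest of the 4, and the treated 6 h value fell between the untreated ones, by a margin of 15.3 CPM over the untreated 3 h library. At 3 h treated Actb was lower by a factor of 1.14 (log2 ratio -0.19, interval -0.20 to -0.18), and it was lower there under every scaling. At 6 h the log2 ratio was -0.04 (interval -0.05 to -0.03) with library totals, and its sign depended on the scaling. It was 0.18 under TMM factors, 0.19 under DESeq2 size factors, 0.02 without the 10 highest transcripts of each library and -0.33 in TPM. Those 10 highest included Actb itself in the untreated libraries only. In TPM, Actb was at 2597 without and 2143 with the drug at 3 h, and at 2715 and 2155 at 6 h, so that there both treated values lay below both untreated ones. Its rank by reads was 8 in both untreated libraries, 12 in the treated 3 h library and 11 in the treated 6 h library.

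Gapdh was nearly level at 3 h and higher with triptolide at 6 h. It stood at 1590 CPM untreated and 1662 CPM treated at 3 h, and at 1574 CPM untreated and 2147 CPM treated at 6 h. The treated 6 h library was well above the other 3, which lay within 88 CPM of each other. The log2 ratio at 3 h was 0.06 (interval 0.05 to 0.08), a difference of 1.05-fold that turned to -0.02 in TPM and to -0.0088 against the reads of Eef1a1 and Actb together. At 6 h it was 0.45 (interval 0.43 to 0.47), or 1.36-fold, and it was above 0 under every scaling. In TPM, Gapdh was at 1455 without and 1430 with the drug at 3 h, and at 1460 and 1627 at 6 h, with a log2 ratio of 0.16 at 6 h. Treated and untreated values thus overlapped in TPM, though not in CPM.

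**Figure D1:**
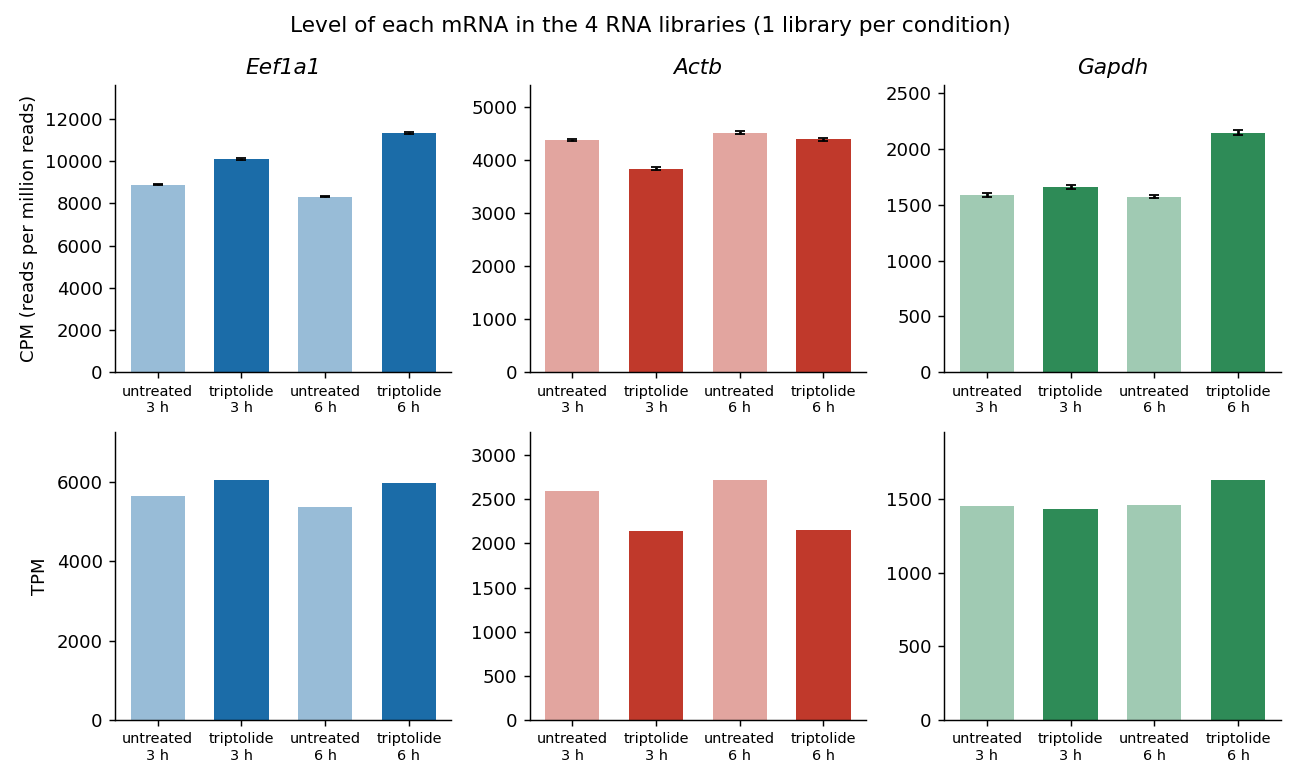
Bars show the level of Eef1a1, Actb and Gapdh in each of the 4 libraries, as CPM in the upper row (error bars, 95% binomial counting intervals) and as deposited TPM in the lower row, each axis starting at 0. Pale bars are untreated and full bars are treated. In CPM the treated 6 h bar is the highest for Eef1a1 and Gapdh (11349 and 2147 CPM), whereas for Actb it lies between the untreated bars; in TPM both treated Actb bars are the lower ones.

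Ratios between members within a library are free of any scaling by 1 factor per library, and they show that the 3 references did not keep their proportions. Per length, as a ratio of TPM, Eef1a1 exceeded Actb 2.18-fold untreated and 2.82-fold treated at 3 h, and 1.98-fold untreated and 2.77-fold treated at 6 h. Both treated ratios lay above both untreated ones. From untreated to treated the ratio was 1.30-fold larger at 3 h (log2 change in reads 0.37, interval 0.36 to 0.39) and 1.40-fold larger at 6 h (0.49, interval 0.47 to 0.50).

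Actb against Gapdh gave the same division of treated from untreated libraries. As a ratio of TPM, Actb exceeded Gapdh 1.79-fold untreated and 1.50-fold treated at 3 h, and 1.86-fold untreated and 1.32-fold treated at 6 h. The log2 change with the drug was -0.25 in reads at 3 h (interval -0.27 to -0.23) and -0.49 at 6 h (interval -0.51 to -0.46). Actb was thus lower against each of the other 2 members at both times.

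Eef1a1 and Gapdh stayed closer to each other. Their ratio of TPM was 3.89 untreated and 4.23 treated at 3 h, and 3.68 untreated and 3.67 treated at 6 h. The log2 change in reads was 0.12 at 3 h (interval 0.10 to 0.14). It was -0.00045 at 6 h, with a counting interval of -0.0222 to 0.0213, which bounds counting error but not the variation between libraries. The untreated libraries give the only gauge of how such ratios differ with no drug, although they also differ in time. Between them the log2 change from 3 h to 6 h was -0.14 for Eef1a1 over Actb, -0.08 for Eef1a1 over Gapdh and 0.06 for Actb over Gapdh. The changes that involve Actb with the drug, 0.25 to 0.49 in size, were larger than each of these.

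**Figure D2:**
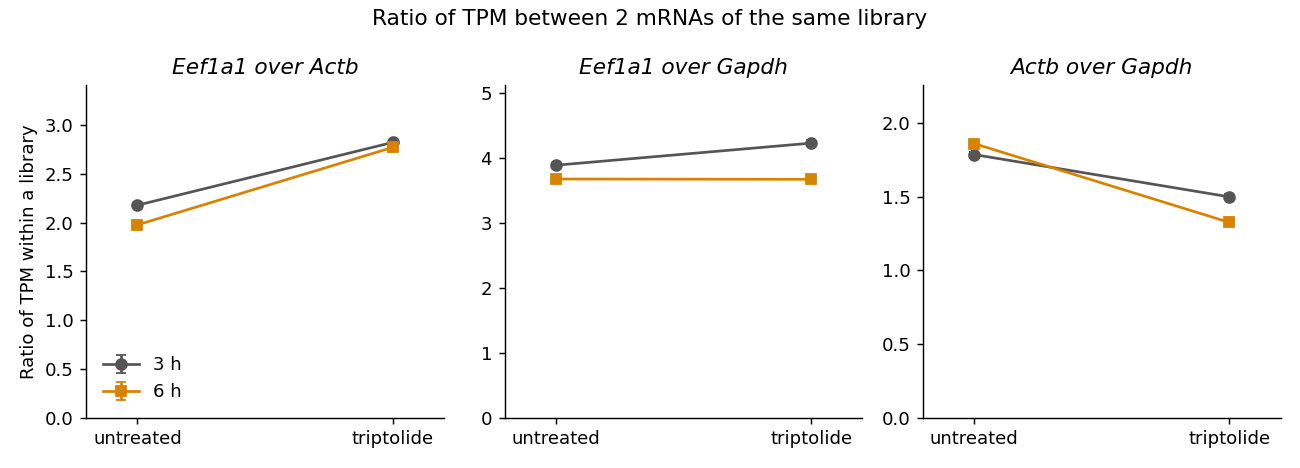
Points give the ratio of TPM between 2 of the mRNAs within a library, untreated on the left and triptolide on the right, at 3 h (circles) and 6 h (squares), with 95% counting intervals that are mostly smaller than the symbols. The lines go up for Eef1a1 over Actb and down for Actb over Gapdh at both times, and at 6 h the line for Eef1a1 over Gapdh is level, at 3.68 and 3.67.

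None of the 3 members (0 of 3) was 2-fold lower or higher in any of the 4 comparisons, by library totals or by another scaling. With triptolide at 3 h, 7.96% of the 32199 transcripts were past 2-fold downwards and 5.38% upwards, and at 6 h 24.7% and 10.7%. The members are abundant, and fewer abundant transcripts passed 2-fold: of the 1596 that averaged at least 100 CPM, 1.25% were past 2-fold downwards and 0.501% upwards at 3 h, and 10.9% and 2.19% at 6 h. A count of 0 among 3 is therefore close to what such transcripts show in general.

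Among those 1596 transcripts, the 6 h log2 ratio of Eef1a1 was above that of 82.6% and that of Gapdh above 82.8%, whereas Actb was above 45.2%. The median of that class was 0.03. The 3 h ratios were above 80.6% for Eef1a1, 56.8% for Gapdh and 21.6% for Actb, around a median of 0.03. Against the 416 of these transcripts that are 1000 to 2000 nt long, as the members are, the 6 h positions were 86.1% for Eef1a1, 86.3% for Gapdh and 37.5% for Actb.

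Against transcripts as abundant as themselves the order was the same but the standing was lower. The 86 transcripts averaging at least 1000 CPM had a median log2 ratio of 0.17 at 3 h and 0.42 at 6 h. At 6 h Eef1a1 was above 58.1% of them, Gapdh above 59.3% and Actb above 14.0%. At 3 h Eef1a1 was above 58.1%, Gapdh above 23.3% and Actb above 6.98%. Of the 86, 70 had a higher share with triptolide at both times by library totals, Eef1a1 and Gapdh among them, and 12 had a lower share at both times, Actb among them. The difference between Actb and the other 2 is the same under any scaling by 1 factor per library, but the signs are not, as given above for Actb at 6 h and Gapdh at 3 h.

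**Figure D3:**
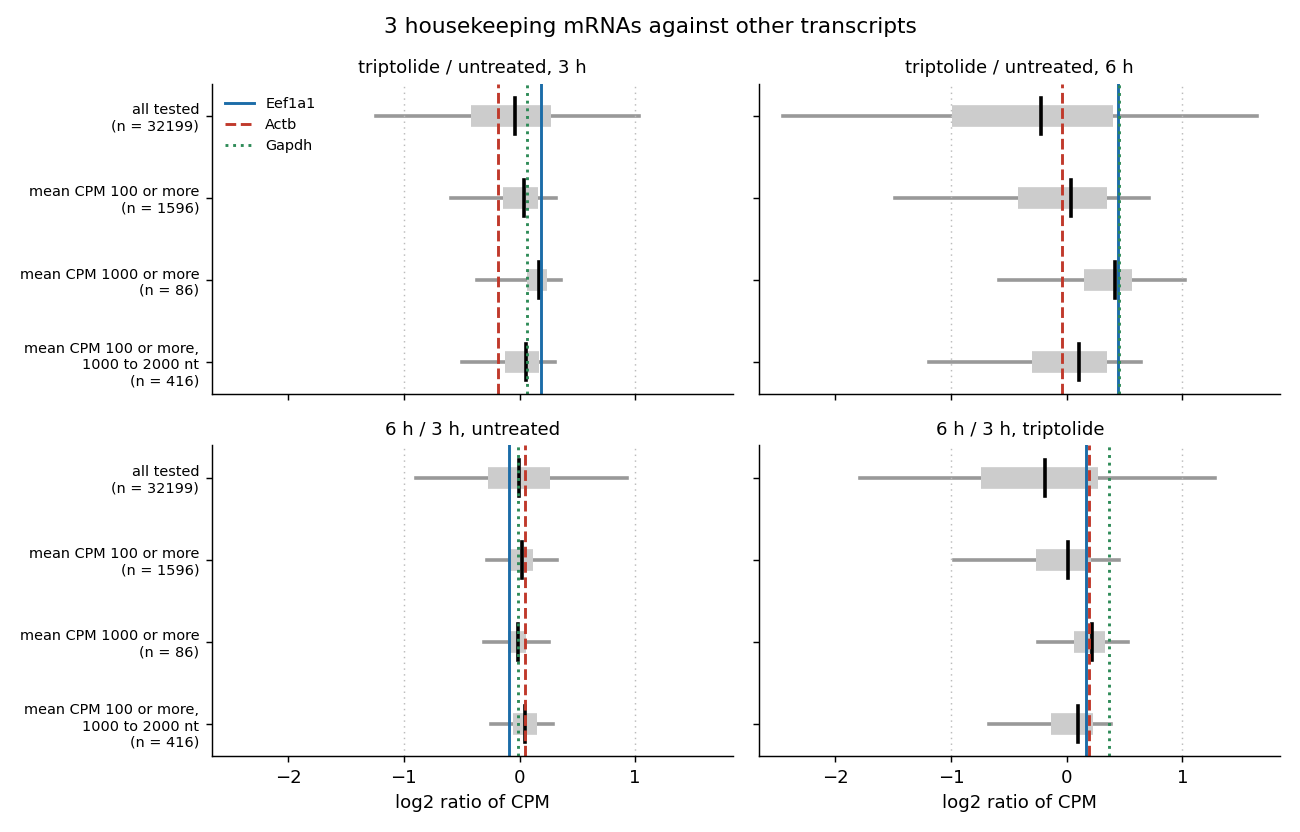
Vertical lines mark the log2 ratio of CPM of Eef1a1 (solid), Actb (dashed) and Gapdh (dotted) in 4 comparisons. Grey bars span the 25th to 75th and grey lines the 5th to 95th percentiles of 4 overlapping classes of transcripts, and black ticks are medians. At 6 h the Eef1a1 and Gapdh lines coincide at 0.45, close to the median of 0.42 of the 86 most abundant transcripts, and Actb lies at -0.04.

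The choice between CPM and TPM shifted all 3 members by nearly the same amount. At 6 h the log2 ratio in TPM was lower than that in CPM by 0.29 for each member, and at 3 h by 0.09. TPM multiplies reads per nucleotide by a factor common to the library, the read-weighted (harmonic) mean effective length of everything sequenced. At 3 h this mean was 1089 nt without the drug and 1023 nt with it, and at 6 h it was 1103 nt and 898 nt. At 3 h, transcripts under 200 nt took 0.774% of reads but 22.2% of TPM without the drug, and 0.919% and 24.4% with it. At 6 h they took 0.755% of reads but 21.8% of TPM without the drug, and 1.12% and 26.4% with it. Over transcripts of 200 nt or more alone, the mean effective length differed too. It was 1388 nt without the drug and 1340 nt with it at 3 h, and 1401 nt and 1206 nt at 6 h. With TPM taken over transcripts of 200 nt or more, an alternative chosen after seeing the data, the 6 h log2 ratios were 0.24 for Eef1a1, -0.25 for Actb and 0.24 for Gapdh, each between the member's CPM and TPM values. The members' summed share of reads at 3 h was 1.49% without the drug and 1.56% with it, and at 6 h 1.44% and 1.79%. Their summed TPM was 9710 and 9623 at 3 h, and 9543 and 9755 at 6 h, so the larger summed share at 6 h in reads had little counterpart in TPM.

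Taking each member in turn as the reference gave different pictures of the same libraries. Scaling to a member subtracts its own log2 ratio from that of every transcript. With triptolide at 3 h, 3673 transcripts (11.4%) were past 2-fold downwards and 1175 (3.65%) upwards when Eef1a1 was held constant. With Gapdh held constant the counts were 2879 and 1510, and with Actb 1792 and 2543. Downward transcripts were thus 75.8% of those past 2-fold with Eef1a1, 65.6% with Gapdh and 41.3% with Actb, against 59.7% by library totals, and with Actb the upward group was the larger one.

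At 6 h the downward group was the larger one with each reference. Scaling to Eef1a1 gave 12260 transcripts (38.1%) down and 2005 (6.23%) up, with a median log2 ratio of -0.67, and scaling to Gapdh gave 12263 and 2005. Scaling to Actb gave 7622 (23.7%) down and 3623 (11.3%) up, with a median of -0.19, close to the library totals (7955 and 3435, median -0.23). TMM factors raised all 6 h ratios by 0.22, to 6355 down and 4573 up, the opposite side of the library totals from Eef1a1 and Gapdh. Among transcripts averaging at least 100 CPM, the 6 h median was -0.41 against Eef1a1 or Gapdh, and 0.07 against Actb, a change of sign.

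**Figure D4:**
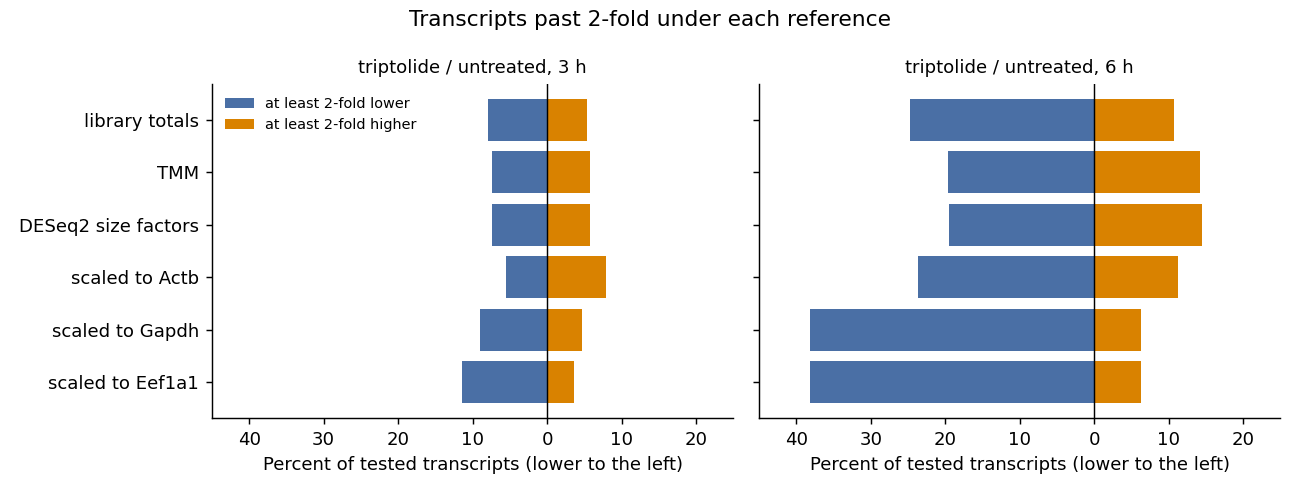
Bars give the percent of 32199 transcripts past 2-fold with triptolide at 3 h (left) and 6 h (right), lower ones to the left of 0 and higher ones to the right, under 6 scalings. At 6 h the lower bars are 38.1% with Gapdh or Eef1a1 as the reference and 23.7% with Actb; at 3 h the higher bar is the longer one only with Actb.

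Without the drug each member differed by 1.07-fold or less between 3 h and 6 h by library totals. The largest of these differences, in Eef1a1, exceeded the 1.05-fold difference of Gapdh with triptolide at 3 h. The log2 ratio of 6 h to 3 h was -0.10 for Eef1a1 (interval -0.10 to -0.09), 0.05 for Actb (interval 0.03 to 0.06) and -0.01 for Gapdh, whose counting interval of -0.0342 to 0.0053 included 0. The TPM ratios were -0.08, 0.06 and 0.0051, with a change of sign for Gapdh. In that comparison 3.85% of tested transcripts were past 2-fold downwards and 4.32% upwards, and no member was. These ratios share libraries with the drug comparisons, so they are no independent check of them.

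Under triptolide all 3 had a larger share of reads at 6 h than at 3 h. The log2 ratio was 0.37 for Gapdh (interval 0.35 to 0.39), 0.19 for Actb (interval 0.18 to 0.21) and 0.17 for Eef1a1 (interval 0.16 to 0.17), and 17.1% of tested transcripts were past 2-fold downwards and 7.73% upwards. In TPM the ratios were 0.19, 0.0081 and -0.02, so that the sign of Eef1a1 turned and Gapdh alone was clearly higher. Gapdh also differed most between the drug ratios at the 2 times: the 6 h log2 ratio minus the 3 h log2 ratio was 0.38 (interval 0.36 to 0.41), against 0.26 for Eef1a1 (interval 0.25 to 0.27) and 0.15 for Actb (interval 0.13 to 0.17), an order that no scaling by 1 factor per library can change. Against Eef1a1, Gapdh was 1.15-fold higher in the treated library at 6 h than at 3 h, and against Actb 1.13-fold higher.

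Which member was the flattest depended on the unit. In CPM the highest library exceeded the lowest 1.18-fold for Actb and 1.36-fold for both Eef1a1 and Gapdh. Of the 1596 transcripts averaging at least 100 CPM, 303 (19.0%) were flatter than Actb by this measure, 819 (51.3%) flatter than Eef1a1 and 821 (51.4%) flatter than Gapdh, and the median transcript had 1.35-fold. In TPM the order turned: the ratio was 1.13 for Eef1a1, 1.14 for Gapdh and 1.27 for Actb, and 12.7%, 14.4% and 39.8% of the same transcripts were flatter. In CPM Eef1a1 and Gapdh were thus no flatter than the median abundant transcript, and in TPM they were flatter than it.

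The transcripts with the most similar pattern over the 4 libraries are given by identifier, since the tables used here name none of them. Likeness is the Euclidean distance between log2 CPM values centred on each transcript's mean, over the 1593 other transcripts that averaged at least 100 CPM. Nearest to Eef1a1 was ENSMUST00000000090 (645 nt, distance 0.0249), at 218 and 202 CPM untreated and 250 and 275 CPM treated at 3 h and 6 h, followed by ENSMUST00000075738 (distance 0.0361) and ENSMUST00000176010 (0.0412). Nearest to Gapdh was ENSMUST00000117536 (1862 nt, distance 0.0193), at 222 and 223 CPM untreated and 232 and 299 CPM treated, followed by ENSMUST00000074680 (0.0333) and ENSMUST00000116560 (0.0340). Nearest to Actb was ENSMUST00000113231 (1119 nt, distance 0.0641), at 130 and 132 CPM untreated and 115 and 124 CPM treated, followed by ENSMUST00000007708 (0.0775) and ENSMUST00000209099 (0.0853). These transcripts were picked as the nearest, so their distances are no gauge for those between members. Eef1a1 and Gapdh were 0.166 apart, Actb and Gapdh 0.393, and Actb and Eef1a1 0.442. From Eef1a1, 249 of the 1593 transcripts were nearer than Gapdh, and from Gapdh 236 were nearer than Eef1a1. From Actb, 773 of the 1593 transcripts were nearer than Gapdh and 927 nearer than Eef1a1.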

How the data were processed

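Polyadenylated RNA was measured in 4 libraries, 1 per condition. Per the file headers, the authors deposited for every transcript a length, an effective length, an estimated count of reads and a TPM value, the columns of the Salmon quantifier, with its version and transcript set not given in the sources used here. The deposited estimated counts are not normalized. The deposited TPM values divide them by effective length and scale each library to 1000000. The submitters' processing notes list FastQC 0.11.4, Bowtie 1.0.0, SAMtools 1.0.6 and the builds mm10 and dm3, with no role for RNA.

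The estimates, rounded to whole numbers, were divided by the library total to give CPM (per 1000000 reads). Transcripts averaging at least 1 CPM were compared. Log2 ratios have exact conditional binomial (Clopper-Pearson) 95% intervals. The interval of a difference between log2 ratios is a normal approximation. These intervals cover counting error only and take each read as a separate molecule, which without molecular identifiers it need not be. They leave out the uncertainty in how reads were divided between transcripts. A count of 0 was set to 3 reads. The size rule was 2-fold, and with 1 library per condition no p-value is given. The interval code was tested on simulated counts.

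Beside the 3 members, the transcripts named are, for each member, the 3 with the least Euclidean distance in centred log2 CPM over the 4 libraries, among those averaging at least 100 CPM. Members, lists and comparisons were chosen with earlier results of these data known. The gene tables used here pair none of the transcript identifiers with a gene (0 matched), so planned lists of pathway genes and stem cell markers were not applied. Alternatives were TMM factors (edgeR 4.0.16), DESeq2 1.42.0 size factors, log2(TPM + 0.1) and totals without the 10 highest transcripts of each library. Others were scaling to the other 2 members, other abundance filters and, chosen after seeing the data, totals and TPM over transcripts of 200 nt or more. Scripts used Python 3.11.15, scipy 1.17.1 and R 4.3.3.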

Additional observations from a re-analysis of the deposited data

How the results depend on the processing

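No paired analysis was possible because the conditions share only replicate number 1, with 1 library each, so no replicate could be left out either. A model with drug and time as terms would have 1 residual degree of freedom, set by how the drug ratio differs between 3 h and 6 h and not by replicates, and it was not run. Values are log2 ratios in the order Eef1a1, Actb and Gapdh. With TMM factors they were 0.23, -0.15 and 0.11 with triptolide at 3 h, 0.67, 0.18 and 0.67 at 6 h, and 0.35, 0.38 and 0.55 from 3 h to 6 h under triptolide. With DESeq2 size factors they were 0.23, -0.15 and 0.11, then 0.68, 0.19 and 0.68, then 0.36, 0.39 and 0.56. Without the 10 highest transcripts they were 0.22, -0.16 and 0.10, then 0.50, 0.015 and 0.50, and 0.18 and 0.21 for Eef1a1 and Actb under triptolide. In log2(TPM + 0.1) they were 0.10, -0.28 and -0.024, then 0.15, -0.33 and 0.16, then -0.018, 0.0081 and 0.19, and for Eef1a1 and Actb without the drug -0.076 and 0.064. TPM over transcripts of 200 nt or more, chosen after seeing the data, gave 0.14, -0.24 and 0.017, then 0.24, -0.25 and 0.24, then 0.0197, 0.046 and 0.22, and for Eef1a1 and Actb -0.082 and 0.058 without the drug. Against the reads of the other 2 members they were 0.30, -0.36 and -0.0088 at 3 h, 0.34, -0.49 and 0.15 at 6 h, -0.12, 0.13 and 0.033 without the drug, and -0.082, -0.0038 and 0.20 under triptolide. Signs differed from library totals for Actb at 6 h (TMM, size factors, without the 10 highest), for Gapdh at 3 h and without the drug (TPM and the other 2 members), and under triptolide for Eef1a1 (TPM and the other 2 members) and Actb (the other 2 members). Totals of transcripts of 200 nt or more kept all 12 ratios within their counting intervals. Log2 changes of the member to member ratios stayed within theirs in TPM. That is no separate check, because the effective length of each member hardly differed between libraries.

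Counts of transcripts past 2-fold, lower and then higher, moved with the abundance filter, which also sets how many transcripts are compared. With 10 reads summed as the only filter they were 7504 and 6066 (triptolide at 3 h), 14892 and 8285 (at 6 h), 5251 and 5871 (6 h against 3 h, untreated) and 10435 and 6993 (treated). At a mean CPM of 10 or more they were 334 and 142, 2322 and 420, 62 and 68, and 1400 and 232. The shares moved less. With triptolide at 6 h the lower share was 26.8% with the 10 reads, 24.7% at 1 CPM and 21.3% at 10 CPM. Those filters kept 55576, 32199 and 10926 transcripts. The higher share was 14.9%, 10.7% and 3.84%. At 3 h the lower shares were 12.9%, 7.96% and 3.06%, and the higher ones 10.4%, 5.38% and 1.3%. Scaling to Eef1a1 gave 12260 and 2005 at 6 h. Scaling to Gapdh gave 12263 and 2005 at 6 h, and 9368 and 1433 from 3 h to 6 h under triptolide. The counts past 2-fold thus include many scarce transcripts, whose ratios rest on few reads, but so do the transcripts tested. Of all 32199, 10926 averaged at least 10 CPM. With triptolide at 6 h, 2322 of the 7955 lower and 420 of the 3435 higher transcripts did.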
